A study of Mus musculus with 7 samples.

Results

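The genes described here are 10 members of the BCL2 family, which decides whether a cell keeps or breaks its outer mitochondrial membrane. They were chosen by symbol, as the rows named Mcl1, Bcl2, Bcl2l1, Bcl2a1a, Bcl2a1b, Bcl2a1d, Bcl2l11, Bax, Bak1 and Bid, and all 10 were found among the 35641 genes of the table. RNA was sequenced from cells labelled as neutrophils, sorted from lungs of female C57BL6 mice for CD45 and CD11b, low Ly6C and Ly6G. The study had 4 HF mice and 3 LF mice, with 1 library for each. The labels do not spell these group names out, and give no ages, diets or treatments; the title of the study names obesity and oxidative stress. The libraries held 13943173 to 18983351 reads assigned to genes.

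As background, the family has opposing branches. Pro-survival proteins (MCL1, BCL2, BCL-XL, A1) hold the pore formers BAX and BAK in check, and BH3-only proteins such as BIM and BID relieve that check or activate the pore formers. Once pores open, cytochrome c leaves the mitochondrion and caspases are switched on. Neutrophils are short-lived cells that lean on MCL1, a protein with rapid turnover, and on A1, while BCL2 itself is known for its low level in mature neutrophils.

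The libraries labelled LF went against the sort. Ly6g, the gene of the sort marker, averaged 3264 normalized counts in HF and 2.99 in the LF-labelled libraries. Summed over 15 neutrophil markers, the level was 428295 to 585068 in HF and 12935 to 14352 in the LF-labelled libraries, and 13 of 14 tested markers were higher in HF. Summed over 12 monocyte and macrophage markers it was 30696 to 38866 and 163815 to 176076, and 10 of 12 were lower in HF, with none at 0 in either group. Other cell types differed too. Summed platelet markers were 708 to 3211 in HF and 149 to 336 in the LF-labelled libraries, with 4 of 5 higher in HF. Summed eosinophil, basophil and mast cell markers were 850 to 1148 and 53.9 to 160, with 1 of 5 higher. Summed dendritic cell markers were 175 to 359 and 1919 to 2608, with 3 of 6 lower. Every difference below is therefore between the HF libraries and the LF-labelled libraries. The part of this difference in cell markers in each result was not tested, and in bulk RNA fewer cells of a type and less RNA per cell cannot be told apart.

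Within the family, 4 genes were higher in HF (Mcl1, Bcl2l1, Bcl2l11 and Bid), 3 were lower (Bcl2, Bcl2a1d and Bax), and 3 did not pass the test (Bcl2a1a, Bcl2a1b and Bak1). All 10 passed the filter of a mean of 10 normalized counts. The test was limma on log2(normalized count + 1), with Benjamini-Hochberg adjustment over all 14936 tested genes and a threshold of 0.05. Of all tested genes, 55.0% were called, with 26.2% higher and 28.7% lower in HF, and the 7 of 10 are to be read against that background. With DESeq2 and with edgeR, run on the recovered reads, 7 of the 10 were called too, where 56.7% and 51.0% of tested genes were called. The groups did not overlap in 8 of the 10 genes, against 62.2% of all tested genes. The median log2 difference was -0.48 over the 10 genes and -0.16 over all tested genes. Scaling the libraries to equal totals moved the median of all genes by -0.54. It changed the family's split to 3 higher and 5 lower, and the share of all calls that were higher in HF from 47.7% to 29.7%.

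**Figure D1:**
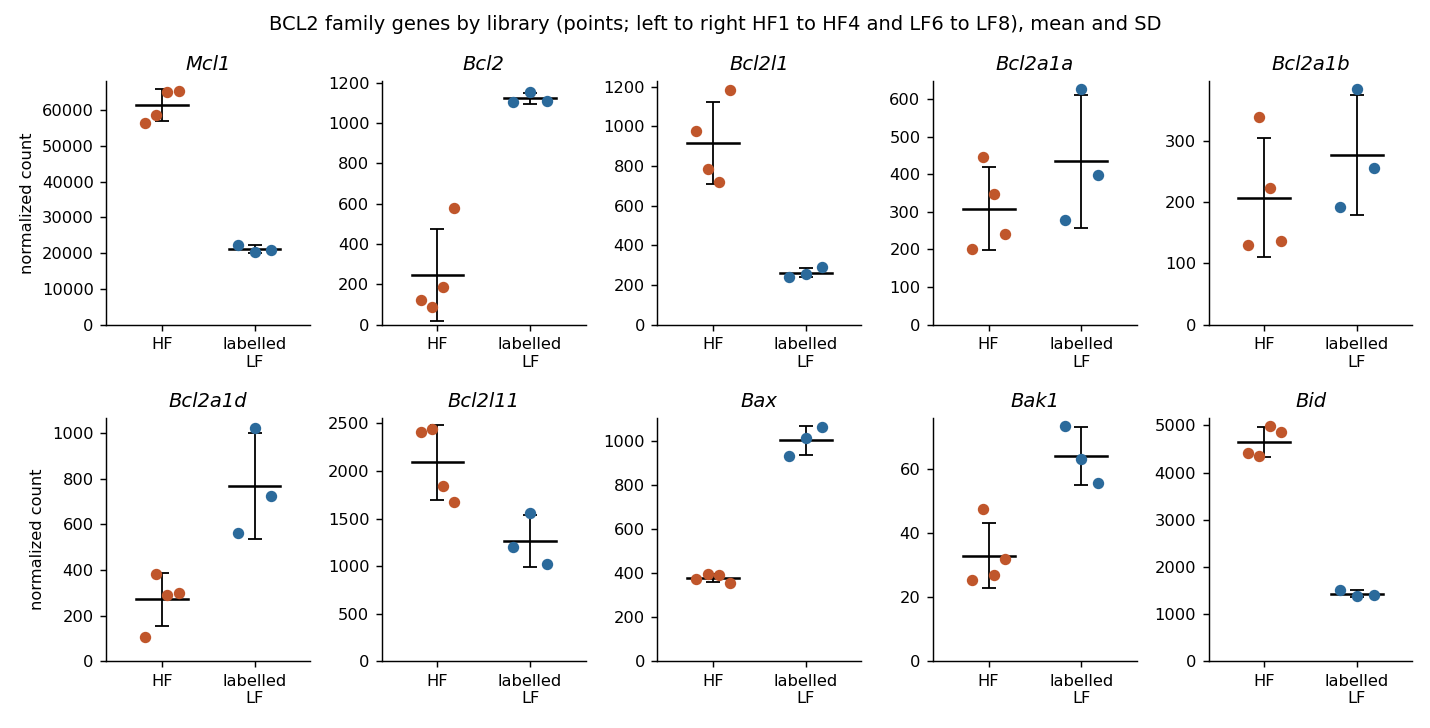
Normalized counts (y axis, from 0) of the 10 BCL2 family genes in the 4 HF libraries (orange points) and the 3 libraries labelled LF (blue points), with the mean (bar) and SD (whiskers). Mcl1, Bcl2l1, Bcl2l11 and Bid lie higher in every HF library, Bcl2, Bcl2a1d, Bax and Bak1 lie lower, and the groups overlap for Bcl2a1a and Bcl2a1b.

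Among the pro-survival genes, Mcl1 (ENSMUSG00000038612) was by far the most abundant. It stood at 56468, 58751, 65059 and 65214 normalized counts in HF replicates 1 to 4 and at 22380, 20258 and 20833 in LF6, LF7 and LF8. Each group was tight and the groups did not overlap. By mean count Mcl1 ranked 12 among all genes in HF and 28 in the LF-labelled libraries. The log2 difference was 1.53 ± 0.07 (SE; limma adjusted p = 7.0e-07), a ratio of means of 2.90. Quantile normalization left 0.55 (limma adjusted p = 0.00016), and equal library totals left 1.01.

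The stretch of 150 bases before the annotated start of Mcl1 (RefSeq, GRCm38.p6, chr3:95658571-95658720, plus strand) is shown because Mcl1 carries the largest share of the family's reads. Capitals mark a match to the ETS letters CCGGAAG, and a run in which the NF-kB letters (GGG, any 2 bases, TT, any base, CC) and the GC box GGGCGG, both on the minus strand, overlap by 2 bases.
Mcl1: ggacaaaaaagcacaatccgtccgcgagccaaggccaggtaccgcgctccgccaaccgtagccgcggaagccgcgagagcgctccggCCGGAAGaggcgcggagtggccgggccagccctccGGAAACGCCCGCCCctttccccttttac
Over 250 bases before each start, searched on both strands, the NF-kB letters were found for 3 of the 10 genes (Mcl1, Bcl2l1 and Bcl2l11) and for 4.71% of 27025 genes. The ETS letters were found for Mcl1 and Bcl2l11, against 7.83% of genes. GC boxes were found for 8 of 10, against 35.4% of genes, and the STAT letters TTCNNNGAA for 0 of 10, against 8.13%. The other motifs of the 7 searched were each found for 1 of 10 genes. These were the CCAAT box (CCAAT), against 37.5% of genes, the E-box (CACGTG), against 6.86%, and the cAMP response element core (TGACGT), against 7.29%. A match describes letters in this window and is not a binding site. Some genes have several windows, and the Bcl2a1 windows are copies of each other.

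Bcl2l1 (ENSMUSG00000007659), which encodes BCL-XL, had 979, 783, 722 and 1181 normalized counts in HF replicates 1 to 4. In LF6, LF7 and LF8 it had 241, 257 and 290. Every HF library lay above every library labelled LF, and the log2 difference was the largest of the 10 upward, at 1.77 ± 0.20 (SE; limma adjusted p = 0.00014). Bcl2 (ENSMUSG00000057329), the founding member, went the other way. It stood at 125, 86.1, 187 and 581 in HF replicates 1 to 4 and at 1106, 1152 and 1108 in the LF-labelled libraries.

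The libraries labelled LF were nearly identical for Bcl2, whereas HF spread over a wide range with replicate 4 on top, and the groups did not overlap. The log2 difference was -2.59 ± 0.57 (SE; limma adjusted p = 0.0056), and without HF replicate 4 it was -3.14 (limma adjusted p = 0.00016). HF replicate 4 also had the highest summed T cell markers of the HF libraries, at 2351 against 1657, 1428 and 1091 in replicates 1 to 3. Its summed dendritic cell markers were the highest too, at 359 against 175, 248 and 342 in replicates 1 to 3. No single marker of that list was highest in replicate 4, however. Cd209a, for example, was 233 there and 253 in replicate 3, and Flt3 was 42.3 and 74.0. Its summed B cell markers were 10160, but replicate 1, where Bcl2 was 125, had 10779. Its summed NK cell markers, 70.6, were the lowest, against 905 to 1146 in the other HF libraries. Its summed monocyte markers, 37169, lay below the 38866 of replicate 3. The part of these markers in the level of Bcl2 was not tested.

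**Figure D2:**
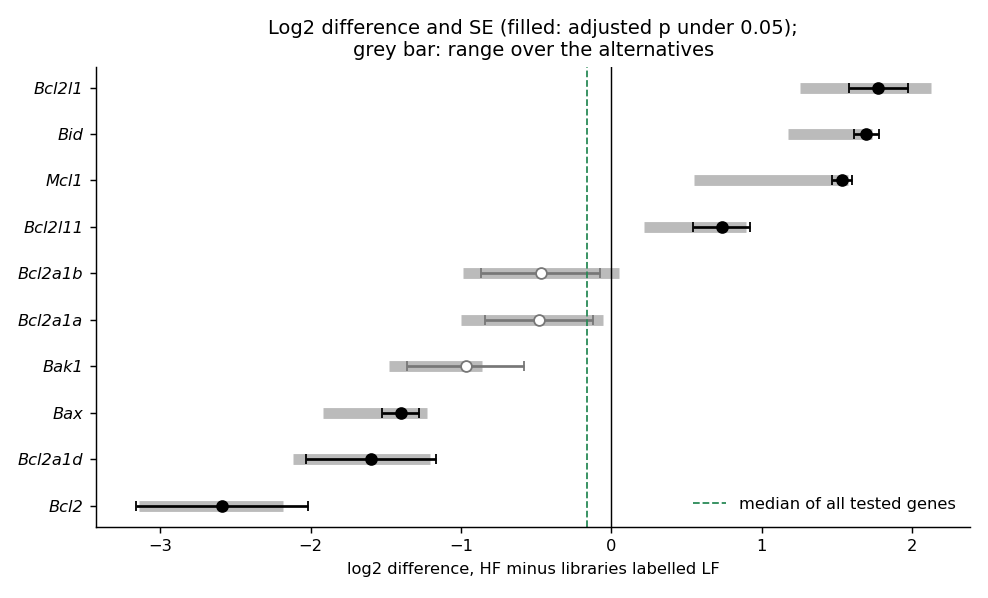
Log2 difference of each gene, HF minus the LF-labelled libraries (x axis), with its SE (whiskers). Filled points passed an adjusted p of 0.05, grey bars span the alternative settings, and the dashed line is the median of all tested genes, -0.16. Bcl2l1, Bid and Mcl1 lie between 1.53 and 1.77, and Bcl2 lies lowest at -2.59.

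Mouse A1 is encoded by several near-identical genes on chromosome 9. The promoter stretches of the 3 copies are shown because they make plain how little separates them. All lie before the annotated starts in RefSeq (GRCm38.p6), at chr9:88956720-88956854 (plus strand) for Bcl2a1a, chr9:89199029-89199163 (plus strand) for Bcl2a1b and chr9:88731916-88732044 (minus strand) for Bcl2a1d. Capitals mark a base that differs from Bcl2a1a.
Bcl2a1a: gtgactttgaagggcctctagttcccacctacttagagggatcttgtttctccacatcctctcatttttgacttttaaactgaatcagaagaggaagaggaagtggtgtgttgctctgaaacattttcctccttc
Bcl2a1b: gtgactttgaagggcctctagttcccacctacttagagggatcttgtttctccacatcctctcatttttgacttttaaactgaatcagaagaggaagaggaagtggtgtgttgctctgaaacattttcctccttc
Bcl2a1d: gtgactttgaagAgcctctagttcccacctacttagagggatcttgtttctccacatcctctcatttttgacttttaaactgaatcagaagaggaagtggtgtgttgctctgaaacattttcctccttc
Bcl2a1a and Bcl2a1b were identical over these 135 bases, and Bcl2a1d had 1 mismatch and lacked 6 bases. The transcripts were also close, but none of these pairs was identical. In GENCODE M21 the aligned bases were 98.2% identical between Bcl2a1a and Bcl2a1b, 98.8% between Bcl2a1a and Bcl2a1d, and 99.1% between Bcl2a1b and Bcl2a1d. Of all stretches of 100 bases in these transcripts, 43.5% of those of Bcl2a1a, 31.1% of Bcl2a1b and 54.7% of Bcl2a1d also occurred, letter for letter, in another copy. In the same annotation 49.1% of the exon bases of Bcl2a1b are also exon bases of Gm29094 on the same strand, a gene with a mean of 0.94 normalized counts. The level of each copy, its share and its ratio to another copy are uncertain, since the sources used here do not say how reads matching several copies were counted.

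Bcl2a1d (ENSMUSG00000099974) had 108, 384, 290 and 301 normalized counts in HF replicates 1 to 4 and 563, 1021 and 725 in LF6, LF7 and LF8. The groups did not overlap, with HF replicate 1 lowest and LF7 highest. Its log2 difference was -1.60 ± 0.43 (SE; limma adjusted p = 0.014), and the call was lost without LF7 (-1.37, limma adjusted p = 0.060). Bcl2a1a (ENSMUSG00000102037) had 201, 446, 346 and 240 in HF and 279, 626 and 397 in the LF-labelled libraries. Bcl2a1b (ENSMUSG00000089929) had 130, 339, 223 and 137 in HF and 192, 384 and 255 in the LF-labelled libraries. For these copies the groups overlapped, with HF replicate 2 and LF7 the highest of their groups. Their log2 differences were -0.48 ± 0.36 and -0.47 ± 0.40 (SE; limma adjusted p = 0.28 and 0.34). That of Bcl2a1b turned to 0.05 after quantile normalization, and Bcl2a1a passed with equal library totals (limma adjusted p = 0.046).

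The reads were divided differently among the copies. Bcl2a1d held 24.7%, 32.9%, 33.8% and 44.4% of the reads of the 3 copies in HF replicates 1 to 4, and 54.5%, 50.3% and 52.7% in LF6, LF7 and LF8. The 95% Wilson intervals ran from 20.6% to 29.2% in HF replicate 1, on 381 reads, and from 40.2% to 48.7% in HF replicate 4, on 529 reads. Among the LF-labelled libraries the lowest bound was 48.4%, in LF7, on 2706 reads. These intervals cover counting error only. They take reads as independent, which amplified reads are not, so they can be too narrow. For HF the share was 33.9 ± 8.10% (SD, n = 4), and for LF it was 52.5 ± 2.10% (SD, n = 3), with no overlap (two-sided exact permutation p = 0.057, the smallest that 4 against 3 libraries can give). The log2 ratio of Bcl2a1a to Bcl2a1b reads, in contrast, was 0.61 ± 0.17 (SD, n = 4) and 0.63 ± 0.08 (SD, n = 3), with overlapping libraries (two-sided exact permutation p = 0.97). Taken as 1 feature, all 4 Bcl2a1 rows of the table (Bcl2a1c adds at most 6.16 normalized counts in a library) had a log2 difference of -0.94 ± 0.35 (SE; limma adjusted p = 0.049). With edgeR the adjusted p of this sum was 0.058.

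**Figure D3:**
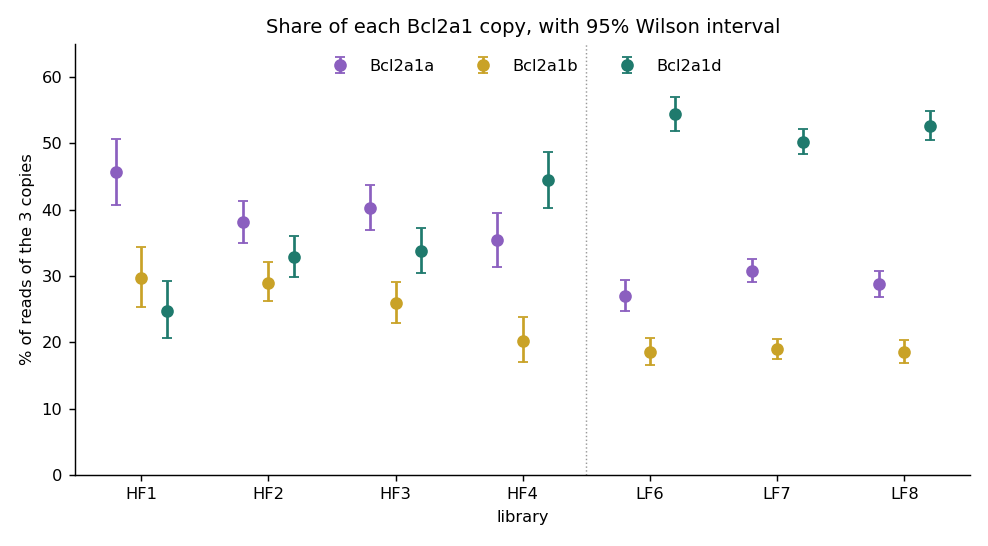
Share of the reads of the 3 Bcl2a1 copies assigned to each copy (y axis, percent) in each library (x axis), with 95% Wilson intervals. The intervals cover counting error only, with reads taken as independent. The share of Bcl2a1d is 24.7% to 44.4% in HF and 50.3% to 54.5% in the LF-labelled libraries.

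Of the BH3-only genes, Bid (ENSMUSG00000004446) was strongly higher in HF. BID is cut by caspase-8 and carries the death receptor signal to mitochondria. It stood at 4414, 4348, 4979 and 4859 normalized counts in HF replicates 1 to 4 and at 1510, 1378 and 1412 in LF6, LF7 and LF8. The groups were well apart, with a ratio of means of 3.24 and a log2 difference of 1.70 ± 0.08 (SE; limma adjusted p = 1.5e-06). In GENCODE M21, 17.7% of the exon bases of Bid are also exon bases of Bcl2l13 on the opposite strand, and the sources used here do not say if reads were counted by strand. Bcl2l13 was lower in HF, at 349 to 523 against 725 to 772, opposite to Bid.

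Bcl2l11 (ENSMUSG00000027381), the gene of BIM, had 2408, 2443, 1841 and 1674 normalized counts in HF replicates 1 to 4. In LF6, LF7 and LF8 it had 1202, 1556 and 1021. The groups were close, with the lowest HF library just above LF7. The log2 difference was 0.73 ± 0.19 (SE; limma adjusted p = 0.012), the smallest of the calls. Equal library totals left 0.21 (limma adjusted p = 0.41), and the call was also lost without LF8 (0.59, limma adjusted p = 0.052).

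Of the pore former genes, Bax was lower in HF and Bak1 did not pass the test. Bax (ENSMUSG00000003873) stood at 375, 396, 391 and 357 normalized counts in HF replicates 1 to 4 and at 935, 1016 and 1066 in LF6, LF7 and LF8. Both groups were tight and far apart, with a ratio of 2.65 (LF over HF) and a log2 difference of -1.40 ± 0.12 (SE; limma adjusted p = 3.8e-05). Bak1 (ENSMUSG00000057789) had few reads, 108 in all of HF and 263 in the LF-labelled libraries. Its values were 25.4, 47.6, 26.9 and 32.1 in HF and 73.4, 63.1 and 55.5 in the LF-labelled libraries. The groups did not overlap, but the log2 difference of -0.97 ± 0.39 (SE) did not pass (limma adjusted p = 0.065). It passed without HF replicate 2, the highest HF library (-1.16, limma adjusted p = 0.030). Ggnbp1, on the opposite strand, shares 18.2% of the exon bases of Bak1, and Gm45808, on the same strand, shares 12.2% of those of Bax.

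Levels of different genes were compared per kilobase of exon, with lengths from GENCODE M21. Each length joins all annotated exons of a gene, for example 9157 bases for Bcl2 and 819 for Bcl2a1a. Which transcripts were present was not tested, and the order per kb depends on these lengths. On this scale Mcl1 averaged 17956 ± 1301 normalized counts per kb in HF (SD, n = 4) and 6190 ± 321 in the LF-labelled libraries (SD, n = 3). In HF Bid came next at 1310 ± 88.9 per kb (SD, n = 4). Below it Bcl2a1a, Bcl2a1d, Bcl2l11, Bcl2a1b, Bax and Bcl2l1 averaged 376, 314, 260, 254, 241 and 200 per kb, and each overlapped its neighbour in this order. Bcl2 and Bak1 closed the order at 26.7 and 13.7 per kb and overlapped. The mean of Bcl2 rested on HF replicate 4, at 63.5 per kb. Without that library Bcl2 averaged 14.5 ± 5.57 and Bak1 13.8 ± 5.15 per kb (SD, n = 3).

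In the LF-labelled libraries the order was different. Bcl2a1d stood second at 892 per kb, followed by Bax at 638, Bcl2a1a at 530, Bid at 404 and Bcl2a1b at 339, each overlapping its neighbour. Bcl2l11 at 157, Bcl2 at 123, Bcl2l1 at 57.3 and Bak1 at 26.6 followed without overlap. Bcl2l1 thus stood above Bcl2 in every HF library and below it in every library labelled LF.

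Of the summed per-kb level of the 6 pro-survival genes, Mcl1 made up 95.6%, 91.6%, 94.0% and 94.4% in HF replicates 1 to 4. It made up 82.4%, 69.5% and 77.0% in LF6, LF7 and LF8. The next largest share in the LF-labelled libraries was that of Bcl2a1d, at 8.21% to 13.9%, against 0.73% to 2.37% in HF. Bcl2 held 0.05% to 0.31% in HF and 1.47% to 1.53% in the LF-labelled libraries. These shares, and the places of the Bcl2a1 copies in the order per kb, are uncertain. The sources used here do not say how reads matching several copies were counted. The shares also depend on the exon lengths used.

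**Figure D4:**
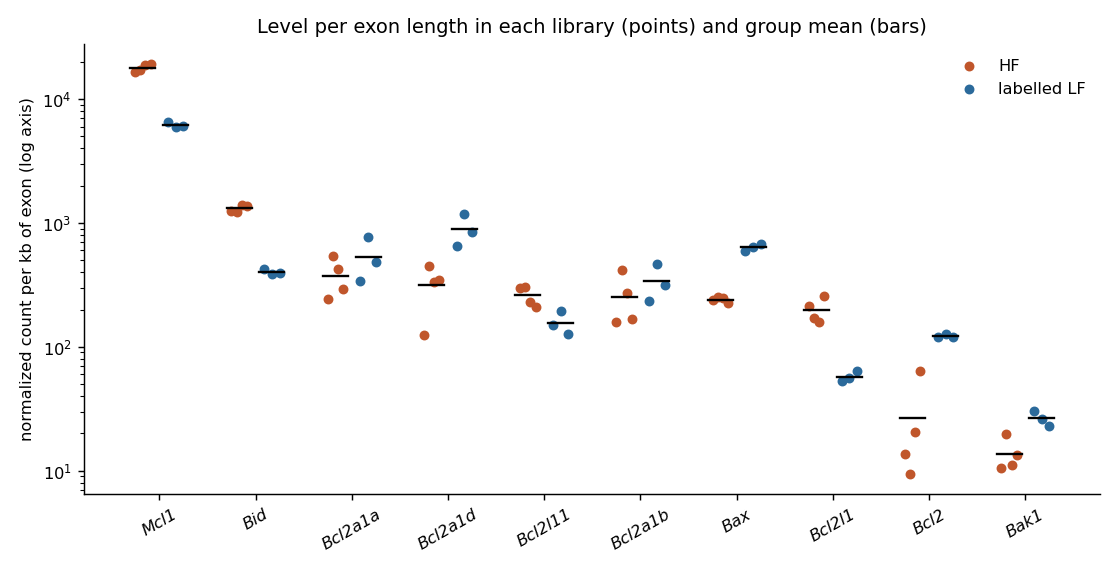
Normalized counts per kb of exon (y axis, log scale) of the 10 genes, ordered by their HF mean, in the HF libraries (orange) and those labelled LF (blue), with group means (bars). Mcl1 is highest in all 7 libraries, and Bcl2l1 and Bcl2 change places between the groups.

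A ratio of counts within a library does not change when that library is multiplied by a factor, but it can change under quantile normalization. The log2 ratio of Mcl1 to Bid counts was, without overlap between the groups, 3.68, 3.76, 3.71 and 3.75 in HF replicates 1 to 4 and 3.89, 3.88 and 3.88 in LF6, LF7 and LF8. The log2 ratio of Bcl2l1 to Bcl2 counts, in contrast, was 2.97, 3.18, 1.95 and 1.02 in HF and -2.20, -2.16 and -1.94 in the LF-labelled libraries. Quantile normalization put the log2 difference at 0.55 for Mcl1, 1.36 for Bid and 0.58 for Bcl2l11, so the ratios of Mcl1 to these genes depend on it. The log2 ratio of Mcl1 to Bcl2l11 counts was 4.55, 4.59, 5.14 and 5.28 in HF and 4.22, 3.70 and 4.35 in the LF-labelled libraries. That of Bcl2 to Bax was -1.59, -2.20, -1.06 and 0.70 in HF, where replicate 4 stood apart, and 0.24, 0.18 and 0.06 in the LF-labelled libraries. HF replicate 4 lay above the range of the LF-labelled libraries for this ratio, and the other HF libraries lay below it.

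The genes most like a member in pattern were those with the smallest root mean square difference of centred log2 values over the 7 libraries, compared over 10619 genes whose mean was 50 or more. For Mcl1 they were Iqgap1, Pcf11 and Nr3c1, at 0.03, 0.035 and 0.044 log2 units. For Bcl2l11 they were Kdm4b, Zscan29 and Gigyf1, at 0.10 to 0.14. For Bcl2 they were Mesd, Nudt1 and Aldh18a1, at 0.27 to 0.32. All 3 were highest in HF replicate 4 among the HF libraries, as Bcl2 was, for example Mesd with 321 normalized counts there and 57.6 in replicate 1. For Bcl2a1b they were Tgif1, Lrrc42 and Psd, at 0.25 to 0.27.

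Of the other family genes, 15 of 16 listed were in the table and 9 were tested, of which 3 were higher in HF, 5 lower, and 1 missed the threshold. The list's median was -0.59. The counts of this list and of each list below are to be read against all tested genes. Of those, 55.0% were called, 26.2% higher and 28.7% lower in HF. Bnip3, which links hypoxia to the removal of mitochondria, was higher in HF at 1400 to 2143 normalized counts against 279 to 299, a log2 difference of 2.62 ± 0.17 (SE; limma adjusted p = 5.8e-06). Pmaip1, the gene of NOXA, which binds MCL1, stood at 4791 to 8226 in HF and 2934 to 4034 in the LF-labelled libraries (0.98 ± 0.19, SE; limma adjusted p = 0.0031). Bnip3l averaged 5050 and 3184 (0.66 ± 0.09, SE; limma adjusted p = 0.00034). The calls of Pmaip1 and Bnip3l were lost with equal library totals (0.46 and 0.14) and after quantile normalization (0.32 and 0.07).

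Several family genes were at or near 0 and were not tested. Bcl2l14 had 0 reads in HF and 15.0 to 20.5 normalized counts in the LF-labelled libraries. With HF set at a floor of 3 reads over the group, its level in HF was lower by at least 20.3-fold. That fold takes the mean of the LF-labelled libraries without its error and leaves out the scatter among HF libraries. Bik had 0 reads in HF and 6 reads in the LF-labelled libraries, too few to set a fold. Bcl2l10 had 9 reads, all in HF replicate 2.

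Of 12 genes of the apoptosome, the caspases and released factors, 1 was higher in HF, 7 were lower and 4 missed the threshold. The median log2 difference was -0.80. Among all tested genes 55.0% were called, and 28.7% were lower in HF. Cycs, the gene of cytochrome c, stood at 302 to 440 normalized counts in HF and 1277 to 1348 in the LF-labelled libraries (-1.95 ± 0.16, SE; limma adjusted p = 3.1e-05). Casp8, the initiator caspase of death receptors, stood at 472 to 880 and 2006 to 2352 (-1.87 ± 0.22, SE; limma adjusted p = 0.00017). Apaf1, the scaffold of the apoptosome, had means of 2416 ± 130 (SD, n = 4) for HF and 2426 ± 110 (SD, n = 3) for LF. Its log2 difference of -0.01 ± 0.08 (SE) did not pass, but equal library totals gave -0.53 (limma adjusted p = 0.0017), as quantile normalization gave -0.41 (limma adjusted p = 0.0041).

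Of 9 inhibitor of apoptosis genes, 2 were higher, 3 were lower and 4 missed the threshold (median log2 difference -0.14). Birc3, the gene of cIAP2, was higher in HF at 6211 to 7593 normalized counts against 2961 to 3421 (1.05 ± 0.09, SE; limma adjusted p = 3.6e-05). Naip6, one of several similar Naip genes and thus uncertain, was lower at 165 to 318 against 1238 to 1403 (-2.48 ± 0.26, SE; limma adjusted p = 1.0e-04).

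Of 8 tested death receptor genes, 3 were higher, 2 were lower and 3 missed the threshold (median log2 difference -0.17). Fas, the receptor whose signal runs through caspase-8 and BID, was higher in HF at 3699 to 4605 normalized counts against 600 to 726 (2.66 ± 0.12, SE; limma adjusted p = 8.5e-07). Tnfrsf1a, the main receptor of tumor necrosis factor, was higher at 10219 to 12643 against 4091 to 4447 (1.39 ± 0.08, SE; limma adjusted p = 4.0e-06).

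Of the 3 VDAC genes, which encode the channels of the outer mitochondrial membrane, 2 were lower in HF and 1 did not pass. Among all tested genes 55.0% were called, and 28.7% were lower in HF. Vdac3 averaged 587 and 2172 normalized counts (-1.92 ± 0.18, SE; limma adjusted p = 6.3e-05). Vdac2, which holds BAK, averaged 1725 and 2197 (-0.35 ± 0.10, SE; limma adjusted p = 0.018), and its call was lost without LF6, LF7 or LF8 (limma adjusted p = 0.056, 0.070 and 0.063).

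Of 8 genes listed for the turnover of the MCL1 protein, 3 were higher, 2 were lower and 3 missed the threshold (median log2 difference 0.58). Trib1, a pseudokinase that brings targets to a ubiquitin ligase, averaged 5852 and 1084 normalized counts (2.42 ± 0.12, SE; limma adjusted p = 1.6e-06). Pcna, the sliding clamp of DNA replication, averaged 471 and 1120 (-1.26 ± 0.15, SE; limma adjusted p = 0.00022). Trib1 and Pcna are named for their low p, and an action of either on the MCL1 protein was not tested. The log2 differences of the rest of the list ran from -0.63 (Huwe1) to 0.97 (Gsk3a).

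Of 12 tested transcription factors known to act on family genes, 6 were higher, 4 were lower and 2 missed the threshold (median log2 difference 0.22). Ddit3 (CHOP), which can raise BIM, stood at 1341 to 1440 normalized counts in HF and 131 to 192 in the LF-labelled libraries (3.11 ± 0.16, SE; limma adjusted p = 1.7e-06). Foxo3, another activator of Bcl2l11, averaged 668 and 236 (1.49 ± 0.16, SE; limma adjusted p = 9.8e-05). Stat3, which acts downstream of granulocyte colony-stimulating factor, averaged 14786 and 6943 (1.08 ± 0.12, SE; limma adjusted p = 0.00016). Trp73 had 8 reads, all in HF replicate 2. These counts are to be read against the 55.0% of all genes called, and the marker sums of neutrophils and monocytes differed between the same libraries.

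**Figure D5:**
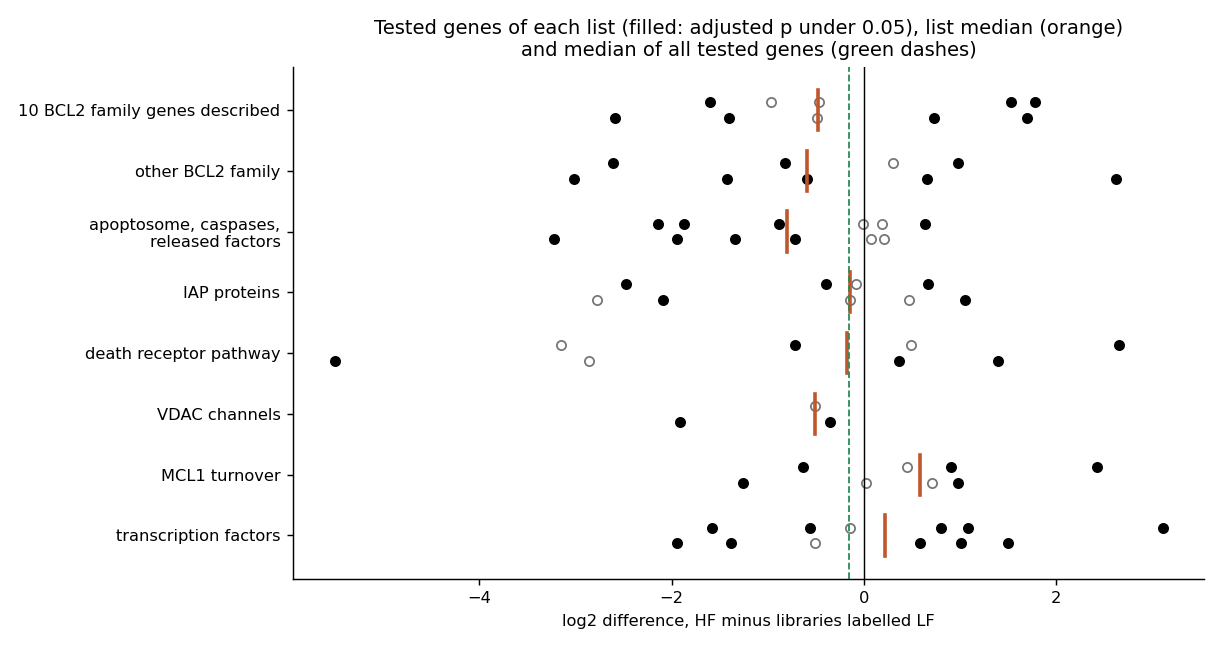
Log2 difference, HF minus the LF-labelled libraries (x axis), of the tested genes in each list (rows). Filled points passed an adjusted p of 0.05, orange bars are list medians, and the dashed line is the median of all tested genes, -0.16. List medians range from -0.80 (apoptosome, caspases and released factors) to 0.58 (MCL1 turnover).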

How the data were processed

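TRIzol LS served to extract the RNA and SMART-Seq chemistry to build the libraries, per the labels' protocols. Tools listed in the submitters' processing notes, without roles or settings, are DESeq2 1.20.0, featureCounts 1.6.3 and STAR 2.6.1b. Neither the genome build nor the annotation or strand setting is given in the sources used here. Per the name of the deposited table, each library's signal is a normalized count. Dividing by what 1 read is worth gave whole reads for 100% of values in each library (within 0.01). Columns of the authors' own comparison in the deposited table (log2 fold change and error, a score as test statistic, p-values) were not used.

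Columns HF1 to HF4 match the sample labels, whereas LF6, LF7 and LF8 match the group only. No 2 libraries of a group agreed within sampling noise (median chi-square per gene 2.29 to 16.2, against 0.455). A p-value here measures only the scatter among the libraries. The mean of Bcl2 per kb without HF replicate 4 was also added after seeing the data.

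Genes with a mean of at least 10 were tested with limma 3.58.1 (R 4.3.3, trend) on log2(normalized count + 1), which understates changes of low genes. The alternatives changed the pseudocount (0.5, 5), the filter (none, 50) or the scaling (equal totals, quantile normalization), used array weights, edgeR 4.0.16 (the authors' size factors or TMM) or DESeq2 1.42.0, or left out each library in turn. The edgeR fit of the summed Bcl2a1 copies was added after seeing the data. On the recovered reads edgeR called 7624 of 14936 genes. The tests were tried on simulated data first. The members and lists were chosen with earlier results of these data known. Named besides the members are, in each list, the 2 genes with the lowest p, the 1 with the highest mean and those at 0 in a group. Bcl2l13 and Ggnbp1 are named for their overlap, Bcl2a1c as a copy, and Huwe1 and Gsk3a as the ends of a range. Hrk was listed but has no row in the table used. Of the table's gene IDs, 35628 of 35641 were found in GENCODE M21, which gave exon lengths and overlaps. Promoter sequences are from RefSeq (GRCm38.p6), with all 10 genes matched by symbol.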

Additional observations from a re-analysis of the deposited data

Results flagged for a closer look

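In a group of 4 libraries, a value was singled out when its gap to the nearest other was above Dixon's 95% critical share of the group's range. Chance alone singles out about 1 in 20 groups of normally distributed values. In HF 31 genes were examined, but Bik and Bcl2l14, at 0 in every HF library, could not be singled out. When all libraries but 1 are at 0, the gap equals the range, as in both genes below. Bcl2l10 stood at 11.6 normalized counts in HF replicate 2 and at 0 in the other HF libraries. Trp73 stood at 10.3 in HF replicate 2 and at 0 in the other HF libraries. Genes with at least 1 read numbered 26409 in HF replicate 2 and 16743 to 20308 in the other HF libraries.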

How the results depend on the processing

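Over all alternatives the number of genes called lay between 6432 (without LF6 or LF8) and 9042 (equal library totals), against 8211, and 6 to 8 of the 10 family genes were called, against 7. Mcl1, Bcl2, Bcl2l1, Bax and Bid kept their direction and their call under all 17 alternatives, with log2 differences of 0.55 to 1.58, -3.14 to -2.18, 1.26 to 2.12, -1.92 to -1.23 and 1.18 to 1.73. Results that turned sign were Bcl2a1b after quantile normalization (0.053) and Apaf1 with DESeq2 (0.0071) and without HF replicate 4, LF7 or LF8 (-0.045 to 0.031 over all libraries left out in turn), all without a call. The cause was not tested. Bak1 passed with equal library totals (-1.48, limma adjusted p = 0.012). No paired analysis was possible because the columns of the libraries labelled LF carry none of the replicate numbers of the labels. Depth limits what can be said of genes with few reads, such as Bik with 6 reads, Trp73 with 8 and Bcl2l10 with 9.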

Other observations

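Within the libraries labelled LF, the summed level of the 3 Bcl2a1 copies was 1035, 2031 and 1377 normalized counts in LF6, LF7 and LF8, and the summed T cell markers were 1114, 2474 and 1670. The T cell list is 1 of 10 marker lists, and this order was not particular to it. Summed alveolar macrophage markers were 24415, 26894 and 25137, and summed eosinophil, basophil and mast cell markers were 53.9, 160 and 54.8. A link of the copies to any cell type was not tested. In HF replicates 1 to 4 the copies summed to 439, 1170, 860 and 679, and the T cell markers to 1657, 1428, 1091 and 2351, which is not the same order.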
